A study of Mus musculus with 13 samples.

Results

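The ceramidase family was examined in whole-liver RNA of alcohol-fed mice, with its members chosen by gene symbol. It has 6 genes, Asah1, Asah2, Naaa, Acer1, Acer2 and Acer3, of the 53392 genes in the count table. Expression was measured by RNaseq in 13 livers, 1 per mouse, from female littermates of 8 to 14 weeks that received 28% of calories from ethanol in a liquid diet for 4 weeks. Genotype differed in TRE-ASAH1, present in ASAH+ and absent in ASAH- mice. Albumin-Cre and the Rosa26 rtTA allele that Cre activates (loxP-stop-loxP) were homozygous in every group, controls included. Albumin-Cre limits the transactivator rtTA to hepatocytes, where doxycycline (Dox, 200 mg/l) lets it bind the tetracycline response element (TRE) and drive the transgene. Dox controls are the 4 mice labelled ASAH- Etoh-Dox, which had Dox but no transgene to induce. Induced mice are the 5 labelled ASAH+ Etoh-Dox, and uninduced carriers the 4 labelled ASAH+ Etoh, which had the transgene but no Dox. The titles of ASAH+ samples swap the Dox treatment relative to the descriptions and induction labels, and the latter were used. The series' design text gives 4 mice per group, and all 13 were used here. Counts per liver summed to between 17819486 and 35358711.

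Ceramidases cleave the amide bond of ceramide and release sphingosine and a fatty acid. Sphingosine can be phosphorylated to sphingosine-1-phosphate or built back into ceramide. The family members are not one protein family but groups of enzymes that work at different pH and in different compartments of the cell. Asah1 encodes acid ceramidase of the lysosome, and Naaa a related lysosomal amidase that prefers N-acylethanolamines to ceramide. Asah2 encodes neutral ceramidase of the plasma membrane, which is abundant in intestine and kidney. Acer1, Acer2 and Acer3 encode alkaline ceramidases of the endoplasmic reticulum and Golgi, with Acer1 best known from the epidermis. The question asked of the counts was whether RNA of the other ceramidases differs where the Asah1 transgene is induced.

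The genes lie on 6 chromosomes. On GRCm38, Asah1 (ENSMUSG00000031591) lies at chr8:41340197-41374773, Naaa (ENSMUSG00000029413) at chr5:92257659-92278170 and Asah2 (ENSMUSG00000024887) at chr19:31982597-32108211, all on the minus strand. Acer1 (ENSMUSG00000045019) lies at chr17:56953490-56982126 and Acer3 (ENSMUSG00000030760) at chr7:98206389-98321208, both on the minus strand. Acer2 (ENSMUSG00000038007) lies at chr4:86874396-86934822 on the plus strand. Asah2 lies 14516 bases from Sgms1, a sphingomyelin synthase gene. The transgene is driven by TRE, so that the upstream sequence of a native ceramidase gene is not what Dox acts on. RefSeq promoter windows of GRCm38.p6 were found for 5 of the 6 members, all but Asah1. The 250 bases before the RefSeq start are given for Asah2, whose group means differed least, for Acer2, the most variable in both groups without induction, and for Acer1, of which 1 count was found. They are written 5′ to 3′ on each gene's strand, with each GGGCGG (GC box) or its reverse complement in capitals.
Asah2, chr19:32103141-32103390, minus strand: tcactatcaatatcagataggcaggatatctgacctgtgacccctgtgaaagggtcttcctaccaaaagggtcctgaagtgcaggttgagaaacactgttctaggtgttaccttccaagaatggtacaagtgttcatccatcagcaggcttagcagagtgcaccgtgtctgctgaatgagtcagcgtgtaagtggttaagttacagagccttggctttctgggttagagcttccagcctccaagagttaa
Acer2, chr4:86874164-86874413, plus strand: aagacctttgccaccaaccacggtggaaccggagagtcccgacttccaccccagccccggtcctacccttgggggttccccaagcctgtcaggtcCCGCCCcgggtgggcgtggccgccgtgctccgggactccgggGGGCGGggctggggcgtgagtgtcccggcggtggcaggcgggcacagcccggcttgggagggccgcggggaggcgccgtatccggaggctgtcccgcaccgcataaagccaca
Acer1, chr17:56982127-56982376, minus strand: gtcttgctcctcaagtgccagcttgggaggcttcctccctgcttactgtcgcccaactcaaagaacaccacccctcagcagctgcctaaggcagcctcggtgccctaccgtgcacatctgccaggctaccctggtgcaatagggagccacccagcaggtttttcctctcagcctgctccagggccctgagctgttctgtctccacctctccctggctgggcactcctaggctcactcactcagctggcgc
The Acer2 window has a GC content of 73.2% with 24 CpG dinucleotides and 2 GC boxes. The Asah2 window has 47.2% with 2 CpG and no GC box, and the Acer1 window 61.6% with 4 CpG and no GC box. Over the 32851 windows of the same length the median was 52.4% with 6 CpG, and 32.7% held a GC box on either strand. Neither CACGTG (E-box, in 6.02% of all windows), CCAAT (33.8%) nor TATAAA (12.4%) occurs on either strand of the 3 windows. The Acer1 window lies outside the annotated gene, 18 bases of the Acer2 window lie in its first annotated exon, and the Asah2 window lies inside the annotated gene but in no exon of it.

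Asah1 had the highest level of the ceramidases in every liver, also per length of transcript, and rose strongly upon induction. Levels are given as CPM, for which each liver's counts were divided by its total and its TMM factor. In Dox controls, replicates 1 to 4 had 48.7, 40.0, 53.7 and 55.0 CPM of Asah1. In uninduced carriers, replicates 1 to 4 had 46.8, 44.2, 46.8 and 48.3 CPM. In induced mice, replicates 1 to 5 had 10314, 9668, 15134, 12725 and 15935 CPM. All 5 induced livers lay above all 8 others, and the 2 uninduced groups overlapped. These values match the induction labels of the 13 mice but do not separate Dox controls from uninduced carriers. The gene-level counts do not separate the transgene from endogenous Asah1, so the level of the endogenous gene in induced livers was not measured.

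The means were 49.4 ± 6.78 CPM (SD, n = 4) in Dox controls, 12755 ± 2796 (n = 5) in induced mice and 46.5 ± 1.70 (n = 4) in uninduced carriers. Between induced mice and Dox controls, Asah1 was 258-fold higher (95% interval 191 to 350), and the adjusted p was 1.24e-11 by edgeR (quasi-likelihood test, Benjamini-Hochberg adjustment). Against uninduced carriers, induced mice had 274-fold more Asah1 (202 to 372, adjusted p = 1.13e-11 by the same edgeR test). Each difference was seen in 20 of 20 pairs of mice, and the exact two-sided permutation test gave p = 0.00794 in both, the smallest it can give for 5 mice against 4. In Dox controls over uninduced carriers, where the transgene was induced in neither group, the log2 fold change of Asah1 was 0.09 (standard error, SE, 0.15) with an adjusted p = 0.906 from the same edgeR test. Without Dox, carrying TRE-ASAH1 thus went with no detectable rise of Asah1. The interval of this log2 fold change, Dox controls over uninduced carriers, ran from -0.24 to 0.41, where a negative value is a higher level in carriers. Genotype and Dox cannot be told apart in this comparison.

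**Figure D1:**
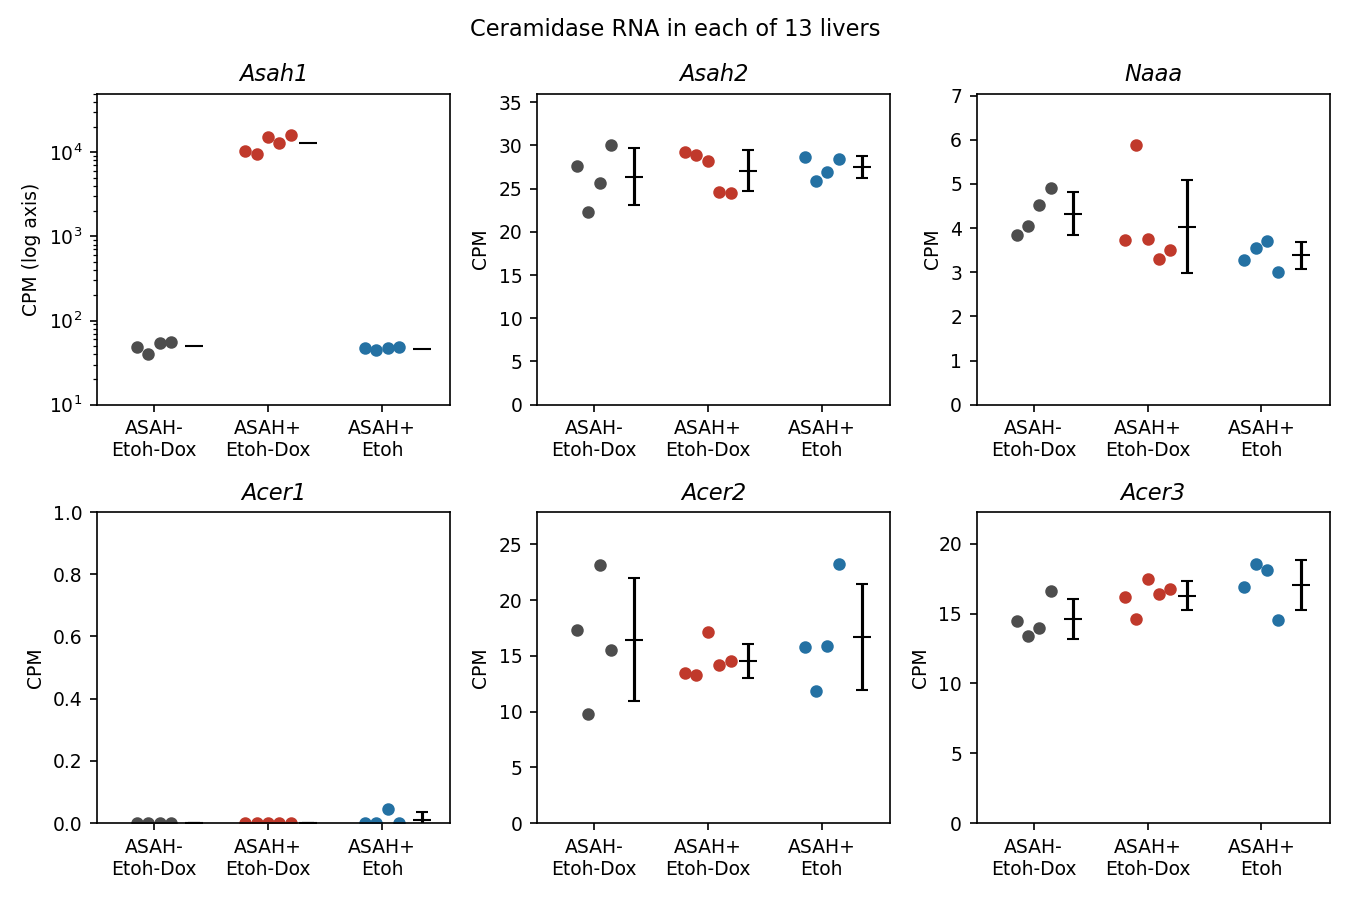
CPM of the 6 ceramidase genes (one panel each, the Asah1 axis is logarithmic) in each mouse of the 3 groups, with points for mice and black marks for group means, with the SD as bars in all panels but that of Asah1. Asah1 lies between 9668 and 15935 CPM in the 5 induced livers and between 40.0 and 55.0 in the others, while the groups overlap between induced mice and Dox controls for Asah2, Naaa, Acer2 and Acer3.

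Of the 6 ceramidases, 1 was differentially expressed at an adjusted p under 0.1 between induced mice and Dox controls, and 1 in induced mice over uninduced carriers, in both cases Asah1. Over all 14317 genes tested, 2 (0.0140%) passed in each of these comparisons, Asah1 and Sod1. DESeq2 called 12 and 95 genes in them, and with the replicate block or the 2 groups alone Sod1 did not pass in the first. Between Dox controls and uninduced carriers, 0 ceramidases passed by edgeR, DESeq2 or limma-voom and 1, Acer3, had an unadjusted p under 0.05, as did 1316 of the 14317 genes. In that comparison 2 genes (0.0140%) of the 14317 passed, the mitochondrial genes mt-Co2 and mt-Co3, which were named after their values were seen. DESeq2 called 150 genes there, and edgeR called neither of the 2 with the replicate block or the 2 groups alone. The 3 comparisons share their groups, so their values for a member are given side by side and are not independent. 5 of the 6 members passed the filter on low counts, and Acer1 did not.

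Asah2, the neutral ceramidase gene, had 492 to 1057 counts per mouse. In Dox controls its levels were 27.6, 22.3, 25.6 and 30.0 CPM, and in induced mice 29.2, 28.9, 28.2, 24.6 and 24.5 CPM. In uninduced carriers they were 28.6, 25.9, 27.0 and 28.5 CPM. The induced livers lay inside the range of the livers of Dox controls, and the lowest and the highest of the 13 were both of Dox controls. The log2 fold change was 0.04 (95% interval -0.16 to 0.24) between induced mice and Dox controls and -0.02 (-0.22 to 0.18) in induced mice over uninduced carriers. As folds, the intervals run from 0.894 to 1.18 and from 0.858 to 1.13. The adjusted p-values from edgeR (quasi-likelihood test, Benjamini-Hochberg adjustment) were 0.999662 and 0.981. In Dox controls over uninduced carriers, the log2 fold change was -0.06 (-0.27 to 0.15, adjusted p = 0.899 by the same edgeR test). The sign of these small values changed with single mice or with the replicate block.

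Naaa had the lowest counts of the members tested, 52 to 163 per mouse. In Dox controls its levels were 3.83, 4.05, 4.53 and 4.90 CPM, and in uninduced carriers 3.27, 3.54, 3.71 and 3.01 CPM. In induced mice they were 3.73, 5.87, 3.76, 3.29 and 3.51 CPM. All 4 livers of Dox controls lay above all 4 livers of uninduced carriers, whereas 4 of the 5 induced livers lay below those of all Dox controls and replicate 2 lay above all of them. The log2 fold change was -0.10 (95% interval -0.46 to 0.26) in induced mice over Dox controls, with an adjusted p = 0.999662 by edgeR (quasi-likelihood test, Benjamini-Hochberg adjustment). It was 0.25 (-0.12 to 0.62, adjusted p = 0.780 by the same edgeR test) in induced mice over uninduced carriers, and 0.08 without replicate 2 of the induced mice. Without this mouse it was -0.28 against Dox controls.

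Between Dox controls and uninduced carriers, Naaa was higher in Dox controls in 16 of 16 pairs of mice. The log2 fold change was 0.35 (95% interval -0.04 to 0.74), with an adjusted p = 0.586 by edgeR (quasi-likelihood test, Benjamini-Hochberg adjustment) and an exact two-sided permutation p = 0.0286, the smallest that 4 mice against 4 can give. Of all 14317 genes tested, 787 (5.50%) had no overlap between these groups, and of the 5 members tested 1. Between induced mice and Dox controls the groups did not overlap for 127 genes (0.887%) and for 1 member, Asah1. The groups of induced mice and uninduced carriers did not overlap for 369 genes (2.58%) and again for Asah1 among the members.

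Naaa is known to be expressed in macrophages, and the markers of Kupffer cells, the liver's macrophages, are given beside it. In Dox controls the 6 markers Clec4f, Vsig4, Cd5l, Marco, Timd4 and Adgre1 summed to 321, 315, 676 and 402 CPM. In uninduced carriers they summed to 313, 246, 268 and 286 CPM, and in induced mice to 440, 450, 237, 384 and 235 CPM. The sums in Dox controls lay above all of those in uninduced carriers, and those in induced livers overlapped with both groups. Replicate 2 of the induced mice, the highest for Naaa, had a sum close to that of replicate 1, whose Naaa was 3.73 CPM. Its T and NK cell markers stood farther apart, at 5.37 CPM against 2.16 to 2.53 in the other induced mice, and its cholangiocyte markers were the highest of its group at 47.1 CPM. This mouse also had the highest sums of its group for adipocyte (3.24 CPM), epidermal (1.80 CPM) and pancreatic acinar (0.396 CPM) markers. Its red cell sum, 241 CPM, was the lowest of the group. Its hepatocyte, endothelial, stellate, B cell, neutrophil and intestinal sums lay inside the range of the other induced mice. The most abundant Kupffer cell marker was Cd5l with a mean of 138 CPM, and no marker of these cells was at 0 in all mice. In Dox controls over uninduced carriers, 6 of 6 markers had a positive log2 fold change with a median of 0.58. The median was -0.31 with 0 of 6 positive in induced mice against Dox controls, and 0.31 with 6 of 6 positive in induced mice over uninduced carriers. Sums of stellate and red cell markers also separated Dox controls from uninduced carriers. By edgeR, 0 of the markers tested of any cell type passed the threshold in the 3 comparisons. Of all single genes tested, 5.50% did not overlap between Dox controls and uninduced carriers. Stellate cell markers summed to 372 to 422 CPM in Dox controls and 297 to 369 in uninduced carriers, with 6 of 6 log2 fold changes positive. Red cell markers summed to 215 to 1714 CPM and 135 to 192 CPM, with 5 of 5 positive and a median of 2.16. The markers tested of cholangiocytes (5), T and NK cells (4) and B cells (4) also had positive log2 fold changes there, though their sums overlapped between the groups. Sinusoidal endothelial markers went the other way, with 5 of 6 lower in Dox controls and a median of -0.15. In induced mice their median was -0.40 against Dox controls and -0.56 against uninduced carriers. Stellate cell markers summed to 308 to 355 CPM in induced mice, below all Dox controls, with 0 of 6 higher and a median of -0.21. Red cell markers summed to 241 to 871 CPM in induced mice, above all uninduced carriers, with 5 of 5 higher and a median of 1.85. Against Dox controls, 0 of 5 red cell markers were higher, with a median of -0.36. T and NK cell and B cell markers were each 4 of 4 higher in induced mice than in uninduced carriers, with medians of 0.73 and 0.84. Against Dox controls their medians were 0.08 and 0.10. The 6 hepatocyte markers had medians of -0.16 against Dox controls and -0.02 against uninduced carriers. Of the cholangiocyte markers, 0 of 5 were higher in induced mice than in Dox controls. In whole liver, more cells of a type and more RNA per cell cannot be told apart, and the part of any of these cell types in the Naaa values was not tested.

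Acer2, the Golgi alkaline ceramidase gene, varied most of the members tested in each uninduced group. In Dox controls its levels were 17.3, 9.79, 23.1 and 15.5 CPM, and in uninduced carriers 15.8, 11.8, 15.9 and 23.2 CPM. In induced mice they were 13.5, 13.3, 17.2, 14.2 and 14.5 CPM. All 5 induced livers lay within the range of each uninduced group, whose lowest and highest mice lay farther apart than any group means. The coefficient of variation was 33.5% and 28.5% in these uninduced groups and 10.7% in the induced mice, and this difference in spread was not tested. The log2 fold change was -0.18 (95% interval -0.65 to 0.29) in induced mice over Dox controls and -0.20 (-0.67 to 0.27) in induced mice over uninduced carriers. The adjusted p-values from edgeR (quasi-likelihood test, Benjamini-Hochberg adjustment) were 0.999662 and 0.874. In the comparison of both uninduced groups it was -0.02 (-0.52 to 0.48, adjusted p = 0.992 by the same edgeR test). Without replicate 3 of the Dox controls the first of these values changed sign, to 0.03. The second was -0.00478 without replicate 4 of the uninduced carriers.

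Acer3, an alkaline ceramidase of the endoplasmic reticulum and Golgi that favours ceramides with unsaturated acyl chains, had levels of 14.5, 13.4, 13.96 and 16.6 CPM in Dox controls. In induced mice they were 16.1, 14.6, 17.5, 16.4 and 16.8 CPM, and in uninduced carriers 16.9, 18.6, 18.1 and 14.6 CPM. Dox control replicates 1 to 3 lay below every liver with the transgene, and replicate 4 lay above 3 induced livers and 1 of the uninduced carriers, so that the groups overlapped. The log2 fold change was 0.16 (95% interval -0.05 to 0.36) in induced mice over Dox controls, higher in 17 of 20 pairs of mice, with an adjusted p = 0.999662 by edgeR (quasi-likelihood test, Benjamini-Hochberg adjustment). The exact permutation p was 0.0873. In Dox controls over uninduced carriers it was -0.22 (-0.44 to -0.01), with an unadjusted p = 0.0432 and an adjusted p = 0.527 by the same edgeR test, and an exact permutation p = 0.0571. In induced mice over uninduced carriers it was -0.07 (-0.27 to 0.14, adjusted p = 0.911 by the same edgeR test).

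Acer1 had 0 counts in 12 of the 13 livers and 1 count in replicate 3 of uninduced carriers. A count of 0 allows up to 3 counts, which corresponds to 0.0830 to 0.173 CPM depending on the mouse. No difference between groups was detectable at this depth. A lincRNA annotated inside Acer1, AC073683.1, had 0 counts in all 13 livers. Of the epidermal markers Krt5, Krt14, Krt10 and Lor, Krt5 was at 0 in all livers and the 4 summed to 0.855 to 1.80 CPM. Of the intestinal markers Lct, Alpi, Sis, Vil1 and Fabp2, the first 3 were at 0 in all livers, and Fabp2, which had a mean of 80.0 CPM, is also expressed in liver. The hepatocyte markers Alb, Apoa1, Ttr, Cps1, Pck1 and Cyp3a11 summed to 83236 to 133625 CPM, with Alb at a mean of 90337 CPM.

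**Figure D2:**
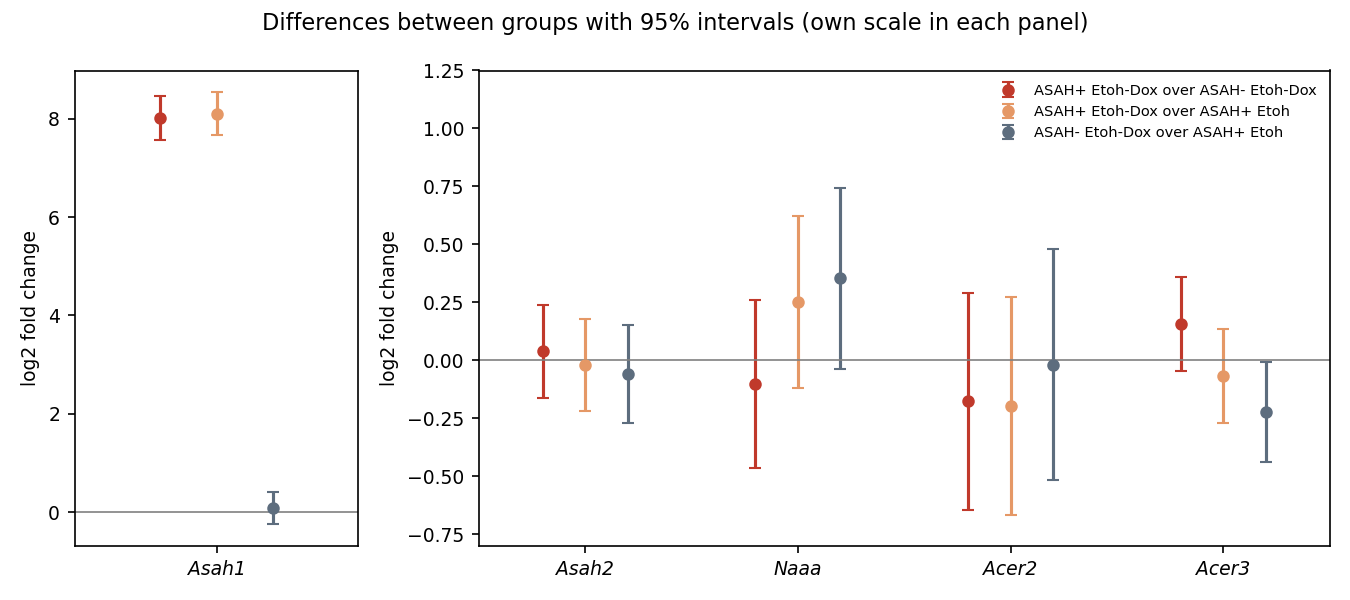
Log2 fold change of the 5 ceramidases tested in the 3 comparisons, with points for the estimate of the fit and bars for its 95% interval, and with Asah1 on a scale of its own. Intervals of Asah2, Naaa and Acer2 include 0 in all 3 comparisons, and that of Acer3 lies from -0.44 to -0.01 between Dox controls and uninduced carriers.

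To compare levels between genes, CPM were divided by the mean length of the protein-coding transcripts of each gene. In Dox controls the levels were 30.8 ± 4.23 CPM per kb for Asah1, 6.53 ± 0.811 for Asah2 and 3.97 ± 1.33 for Acer2 (SD, n = 4). Naaa had 2.77 ± 0.306 and Acer3 1.91 ± 0.186 CPM per kb in the same mice. Asah1 stood apart from the rest in every mouse, whereas Acer2 in replicate 3, at 5.59 CPM per kb, lay above Asah2 in replicate 2, at 5.52. Acer2 and Naaa differed by less than the spread of Acer2 in this group, and in replicate 2 Naaa was the higher of them. In induced mice, Asah2 had 6.71 ± 0.581, Acer2 3.51 ± 0.377, Naaa 2.58 ± 0.668 and Acer3 2.13 ± 0.137 CPM per kb (n = 5), against 7957 ± 1744 of Asah1. In uninduced carriers, Asah1 had 29.0 ± 1.06, Asah2 6.81 ± 0.318, Acer2 4.03 ± 1.15, Acer3 2.23 ± 0.233 and Naaa 2.16 ± 0.198 CPM per kb (n = 4). The order Asah1, Asah2, Acer2 held for the means of all 3 groups, and Naaa and Acer3 were within their spread in both groups with the transgene. With the length of all exons joined in place of the mean transcript, Asah2 and Acer2 were level in Dox controls, at 2.27 and 2.30 CPM per kb. On this measure they had 2.36 and 2.33 in uninduced carriers, and 2.33 and 2.03 in induced mice.

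Asah1 made up 67.0 ± 0.493% of the family's level per kb in Dox controls (SD, n = 4) and 65.6 ± 0.724% in uninduced carriers (n = 4). In induced mice it made up 99.8 ± 0.0513% (n = 5). The other 5 genes together had 15.4, 12.2, 16.6 and 16.5 CPM per kb in Dox controls. In induced mice they had 15.0, 16.0, 15.8, 13.8 and 14.02 CPM per kb, and in uninduced carriers 15.2, 13.97, 15.3 and 16.5. The induced livers lay within the range of the livers of Dox controls, and the lowest sum was that of replicate 2 of the Dox controls. The means were 15.2 ± 2.05, 14.9 ± 1.03 and 15.2 ± 1.03 CPM per kb in the order of the groups just given, so the group means differed by less than the SD in any group.

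**Figure D3:**
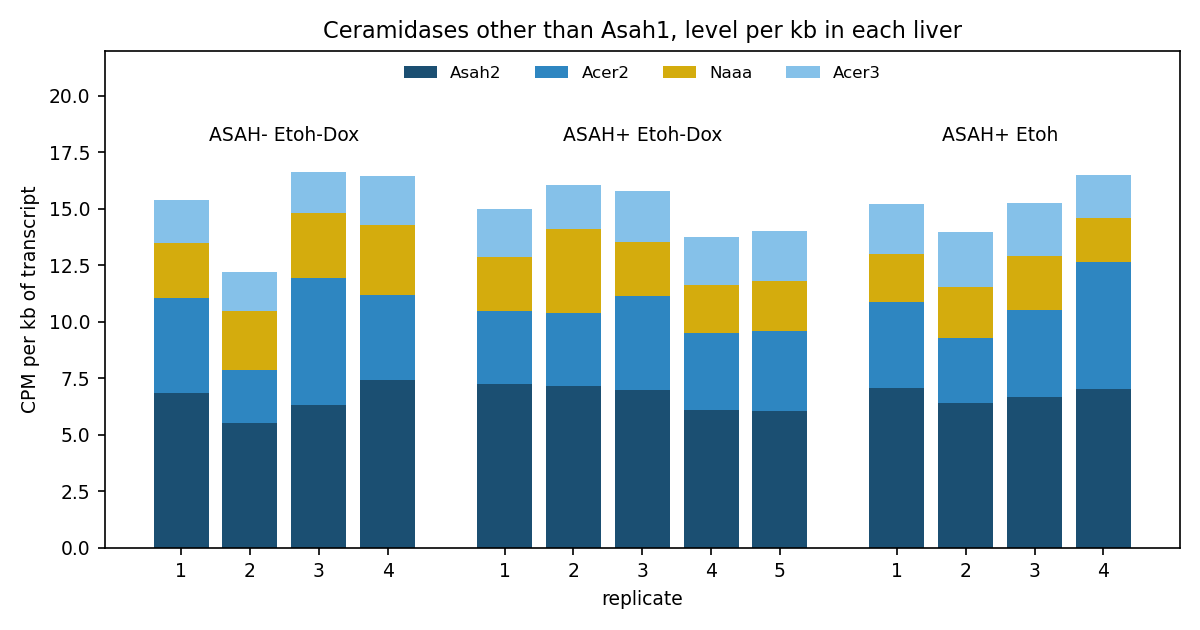
Level of the ceramidases other than Asah1 in each liver, in CPM per kb of mean protein-coding transcript, stacked by gene and grouped by Dox and genotype. Acer1, at most 1 count, is not drawn, and the stacks reach from 12.2 to 16.6 CPM per kb over the 13 mice.

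The ratio of Dbp to Arntl (log2), clock genes that peak at opposite times of day, differed widely between mice of each group, and member levels were set beside it after the data were seen. Relative to its mean, the ratio was -4.48, 3.04, -1.70 and 2.67 in Dox controls and 3.22, 3.36, -5.17, -3.36 and -0.80 in induced mice. In uninduced carriers it was 0.95, 2.61, 1.56 and -1.92. In each of the 3 groups the mouse with the highest ratio had the lowest Acer2. With the 3 group means and this ratio in 1 edgeR fit, the slope of log2 Acer2 was -0.07 per unit of this ratio (95% interval -0.12 to -0.02, adjusted p = 0.121 by edgeR's quasi-likelihood test, Benjamini-Hochberg adjusted). Without the 2 mice farthest from the median ratio it was -0.10 (adjusted p = 0.163 by the same edgeR test). The slope of Asah1 was -0.04 (-0.08 to -0.01, adjusted p = 0.185 by the same edgeR test) and that of Naaa 0.04 (-0.00250 to 0.0907, adjusted p = 0.278 by that test). Without replicate 2 of the induced mice the slope of Naaa was 0.02 (adjusted p = 0.685 by the same edgeR test). Of the 5 members tested 0 passed the threshold by edgeR, and over all 14317 genes 1376 (9.61%) passed. Acer2 and Asah1 had an unadjusted p under 0.05, at ranks 1589 and 2191 by p among all genes. DESeq2 and limma-voom were not run on this slope. Without replicate 4 of the Dox controls Asah1 passed, with a slope of -0.06 (adjusted p = 0.0809 from the same edgeR test). How many of all genes passed in that fit was not counted. Without the 2 mice farthest from the median ratio, 748 of the 14317 genes passed. In induced livers, replicates 1 and 2, with the highest ratios, had the lowest Asah1. Asah1 counts there do not separate the transgene from the endogenous gene, so the slope of Asah1 mixes both. With the ratio as a covariate 1, 1 and 0 ceramidases passed in the 3 comparisons, as without it.

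**Figure D4:**
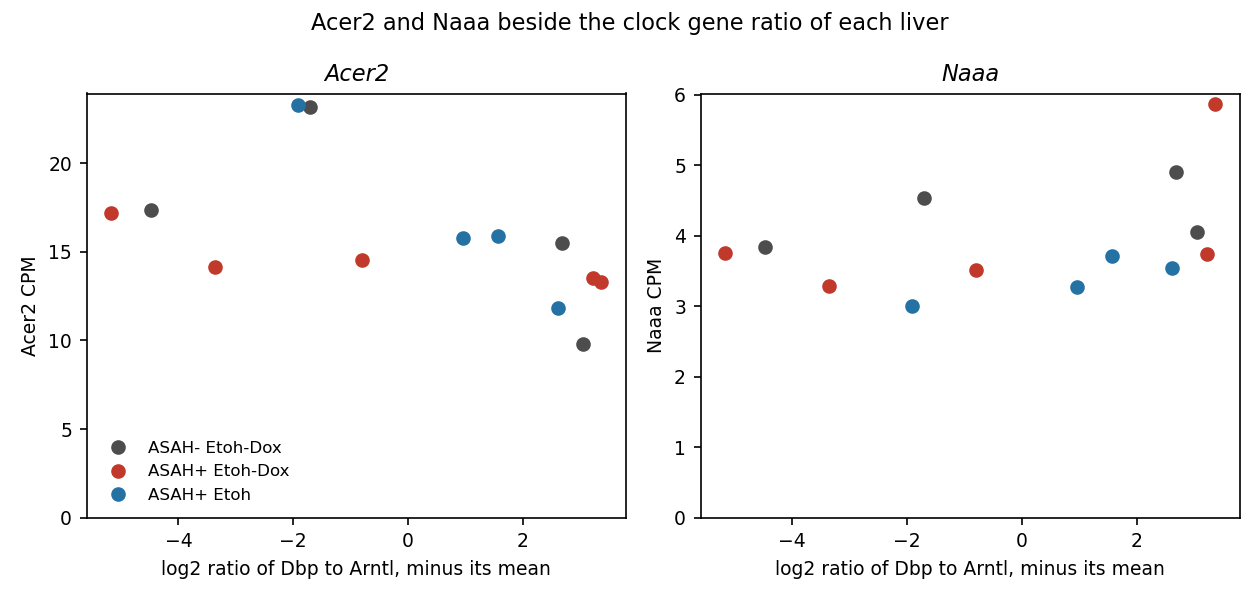
CPM of Acer2 (left) and Naaa (right) in each of the 13 mice against log2 Dbp over Arntl, from which the mean was subtracted, with groups by colour. The ratio spans -5.17 to 3.36, and the lowest Acer2, 9.79 CPM, is at a ratio of 3.04 while the highest Naaa, 5.87 CPM, is at 3.36.

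Genes whose levels over the 13 mice were most like a member's were sought among 11112 genes, after group means were subtracted and each gene scaled to unit variance. The measure was the root mean square difference, whose median over genes was 1.40 to 1.42. For Acer2 the most alike were Socs5 (0.458) and Sptbn1 (0.466), and for Asah1 Ccdc174 (0.398) and Nucb2 (0.465). For Naaa they were Ccdc71l (0.357) and Acsm3 (0.395), for Asah2 Trim30a (0.389) and Jak1 (0.422), and for Acer3 C1galt1c1 (0.368) and Rad21 (0.415). Between members, the least difference was 0.956 between Asah1 and Acer2, and the largest 1.67 between Asah1 and Naaa. No member was therefore among the genes most like another. The Asah1 values take in the transgene in induced livers, so its likeness to other genes is not that of the endogenous gene alone. The nearest protein-coding genes of Asah1, Pcm1 and Frg1, had log2 fold changes of 0.16 and -0.02 in induced mice against Dox controls (SE 0.09 and 0.10). Both had an adjusted p = 0.999662 by edgeR (quasi-likelihood test, Benjamini-Hochberg adjustment).

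Genes around the ceramidases in sphingolipid metabolism, the lysosome and N-acylethanolamine turnover were described by 7 lists with 82 genes in the table, 68 of them tested. By edgeR, 0 of the 68 passed the threshold in each of the 3 comparisons, and 0 by DESeq2 or limma-voom. In induced mice over uninduced carriers DESeq2's filter on mean counts left 3198 genes with an adjusted p, so that its 0 there covers fewer genes. An unadjusted p under 0.05 was found for 1 in induced mice over Dox controls, 6 in induced mice over uninduced carriers, and 6 between Dox controls and uninduced carriers. Over all genes these numbers were 409, 1044 and 1316. The median log2 fold change of the 68 was -0.00, -0.02 and 0.04 in the same order, against -0.00, 0.01 and 0.02 over all genes tested. Between induced mice and Dox controls, 66 of the 68 had a log2 fold change within 0.5 of 0, all but Smpd3 and Paqr8.

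Enzymes that make ceramide de novo were the first list. In induced mice over Dox controls, the 12 genes tested ranged from -0.30 to 0.05 on the log2 scale with a median of -0.05. The lowest was Cers4, a ceramide synthase, with 2.38 ± 0.335 CPM (SD, n = 5) in induced mice and 2.92 ± 0.323 (n = 4) in Dox controls. Ormdl3, a regulator of serine palmitoyltransferase, had a log2 fold change of -0.10 (SE 0.09). Of the 9 genes that release ceramide from sphingomyelin or glycosphingolipids, the median was 0.01. Smpd3, neutral sphingomyelinase 2, had 2.36 ± 1.73 CPM in induced mice and 4.31 ± 2.41 in Dox controls, with a log2 fold change of -0.85 (SE 0.54). Smpd2, another sphingomyelinase gene, had a log2 fold change of -0.21 (SE 0.14).

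The 6 genes of ceramide use and transport had a median of 0.04 in induced mice over Dox controls, -0.22 in induced mice over uninduced carriers, and -0.32 between Dox controls and uninduced carriers. Samd8, which makes ceramide phosphoethanolamine, had 42.0 ± 8.36 CPM (SD, n = 5) in induced mice, 33.8 ± 2.86 (n = 4) in Dox controls and 46.1 ± 4.00 (n = 4) in uninduced carriers. Its log2 fold change was 0.31 (SE 0.13) in induced mice against Dox controls and -0.45 (SE 0.14) in the comparison of both uninduced groups, which did not overlap. The adjusted p-values were 0.999662 and 0.389 by edgeR (quasi-likelihood test, Benjamini-Hochberg adjustment). Sgms2, a sphingomyelin synthase of the plasma membrane, had 77.3 ± 11.0, 65.1 ± 8.27 and 80.0 ± 11.7 CPM in the same order of groups. Between the uninduced groups 4 of the 68 genes (5.88%) did not overlap, against 5.50% of all genes tested. They were Samd8, Sgms1 and Lamp2, lower in Dox controls, and Ormdl1, higher in them, the last 3 named after their values were seen.

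The 8 genes of sphingosine and sphingosine-1-phosphate handling, which act on the product of ceramidases, had a median of -0.06 in induced mice over Dox controls, and 3 were positive. Plpp1 and Plpp2, lipid phosphate phosphatases, had log2 fold changes of -0.36 (SE 0.21) and -0.21 (SE 0.17). The PAQR family, which includes adiponectin receptors with reported ceramidase activity, had a median of -0.15 over 7 genes. Of these Paqr8 had a log2 fold change of -0.74 (SE 0.42) at a mean of 0.360 CPM in induced mice and 0.586 in Dox controls, and Paqr3 -0.19 (SE 0.13). Adipor1 and Adipor2, named for that activity after their values were seen, had 90.4 ± 7.88 and 416 ± 48.1 CPM in induced mice and 95.2 ± 7.80 and 397 ± 37.9 in Dox controls.

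The 21 lysosomal genes, which share the compartment of acid ceramidase, had a median of 0.01 in induced mice over Dox controls. The highest was 0.20 for Lipa, lysosomal acid lipase, which had 306 ± 51.9 CPM (SD, n = 5) in induced mice and 267 ± 16.1 (n = 4) in Dox controls. The median of this list was 0.06 in induced mice over uninduced carriers and 0.02 between Dox controls and uninduced carriers. The 5 genes of N-acylethanolamine turnover, the pathway of Naaa, had medians of -0.06, 0.02 and 0.09 in the 3 comparisons. Faah, the main hydrolase of N-acylethanolamines, had 138 ± 7.50 CPM in induced mice and 141 ± 7.89 in Dox controls, and Gde1 27.8 ± 6.83 and 31.9 ± 4.83 CPM.

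**Figure D5:**
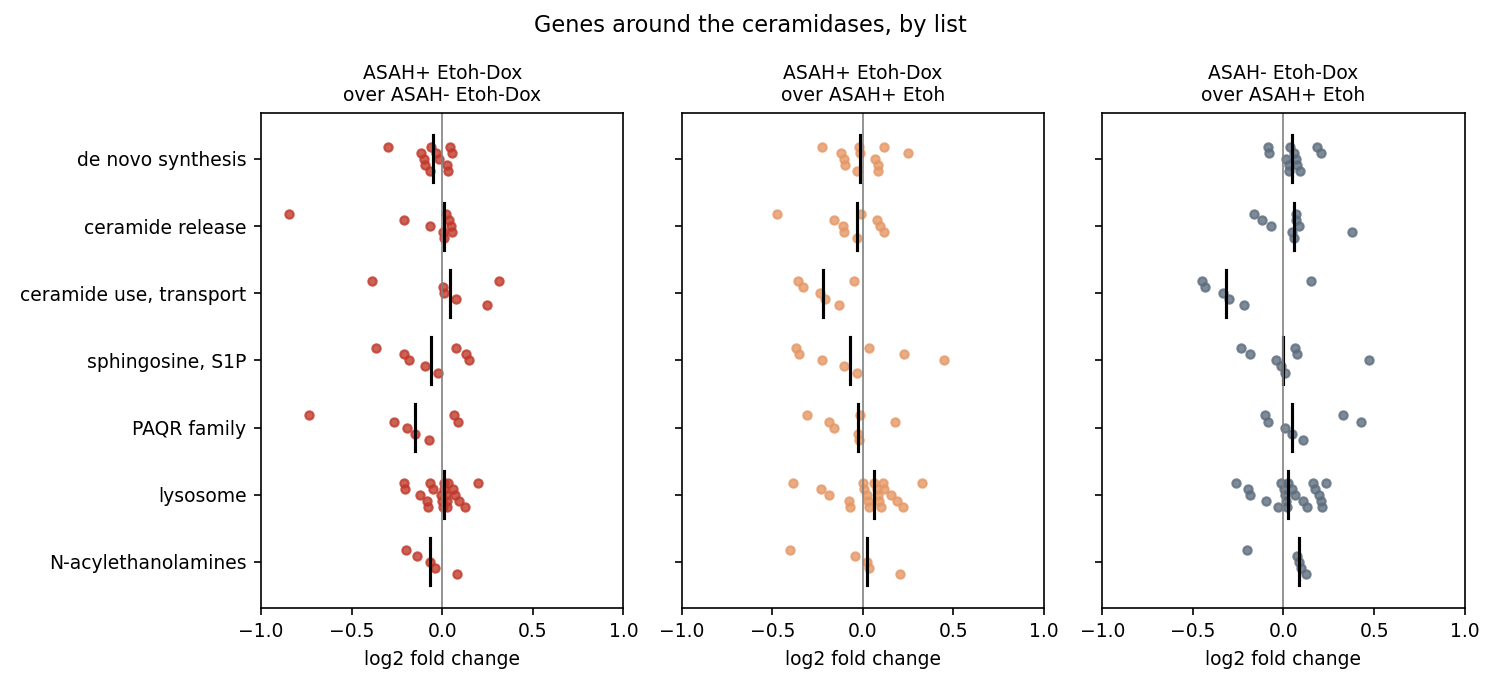
Log2 fold change of each tested gene of the 7 lists (rows) in the 3 comparisons (panels), with points for genes and black bars for the list median. Most points lie within 0.5 of 0, and the list of ceramide use and transport has the median farthest from 0, -0.32, between Dox controls and uninduced carriers.

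Part of the annotated sequence of the members also occurs in other genes. Of the 31-base words of the annotated transcripts, 6.20% for Acer1, 5.78% for Acer3, 1.93% for Naaa and 1.71% for Acer2 occur in transcripts of other genes, against 0.0863% for Asah1 and 0.00851% for Asah2. Reads from such sequence are divided among genes by estimated abundance, and their share in the counts of a member was not measured.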

How the data were processed

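Per the labels and methods, the authors mapped stranded poly(A) reads of 100 bases with Salmon to mouse transcripts of GENCODE M19 (GRCm38.p6) and used tximport for gene sums. What they deposited are expected counts, not scaled for library size, and 100% of them are whole numbers, so they were rounded before deposit. Transcript lengths per mouse were not used here. Gene names came from GENCODE M21, which holds 53355 of the 53392 identifiers.

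Groups and replicate numbers came from the sample descriptions. The members and lists were chosen with earlier results of these data known. The fit used edgeR 4.0.16 (R 4.3.3) on the 14317 genes that filterByExpr kept, with counts scaled by TMM (factors 0.965 to 1.06) and robust quasi-likelihood with 3 group means over 13 mice. Adjusted p (Benjamini-Hochberg) takes in all 14317, and the threshold was 0.1. Exact two-sided permutation tests used log2 CPM with a prior count of 2 and were not adjusted. Intervals are 95% intervals of the fit. The scripts were tested on simulated data. No 2 mice of a group share a library (chi-square over degrees of freedom 17.3 to 95.4 over 22 pairs).

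Named genes were the 6 members, of each list up to 2 genes with the smallest p between induced mice and Dox controls and any gene past the threshold, for each member tested the 2 genes most like it, the neighbours of Asah1 and genes overlapping a member, and Dbp, Arntl, Sod1 and cell type markers. Likeness used genes with a mean log2 CPM above 1. Alternatives were DESeq2 1.42.0, DESeq2's size factors, limma-voom (limma 3.58.1), the 2 groups alone, no filter, Asah1 left out of library totals, a block for replicate number, a covariate for the log2 Dbp to Arntl ratio, an adjusted p under 0.05 and each mouse left out. The slope on that ratio and the length of all exons joined were added after seeing the data. Reads carried no molecular identifiers and PCR copies are not independent molecules, so the floor of 3 counts covers counting error only. Intervals of the fit also take in the spread between mice.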

Additional observations from a re-analysis of the deposited data

Results flagged for a closer look

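Naaa in replicate 2 of induced mice, at 5.87 CPM, lay far from the other 4 mice of its group, which had 3.29 to 3.76 CPM. Its distance to the nearest of them was 0.818 of the whole range of the group. 15 groups of values, 5 members in 3 groups each, were examined in this way, and chance marks about 1 in 20.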

How the results depend on the processing

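In each alternative and in each fit that left out 1 mouse, 1 ceramidase, Asah1, passed the threshold between induced mice and Dox controls and between induced mice and uninduced carriers, 0 between the uninduced groups, and 0 listed sphingolipid genes in all 3 comparisons. The log2 fold change of Asah1 ranged from 7.91 to 8.10 and from 7.98 to 8.18 in the first 2, with the replicate block giving the lowest values. Replicate numbers do not pair the mice, since 2 of 12 same-numbered pairs had a correlation of deviations over 0.1 (range -0.265 to 0.190). Under the replicate block the log2 fold change of Asah2 between induced mice and uninduced carriers turned to 0.02 (0.0158), and the block changed no call of a member. Leaving out 1 mouse, Asah2 ranged from -0.0344 to 0.108 between induced mice and Dox controls, from -0.0588 to 0.0125 in induced mice over uninduced carriers, and from -0.128 to 0.0134 between the uninduced groups. Acer2 ranged from -0.361 to 0.0333, from -0.331 to -0.00478 and from -0.230 to 0.164 in the same order. Without a turn of sign, Acer3 ranged from -0.142 to -0.0238 in induced mice over uninduced carriers, Naaa from -0.276 to -0.0356 in induced mice over Dox controls, and Asah1 from 0.0296 to 0.174 between the uninduced groups. No call of a member changed in these fits, and the cause was not tested. The slopes on the log2 ratio of Dbp to Arntl, leaving out 1 mouse, ranged from -0.00492 to 0.0121 for Asah2 and from -0.0074 to 0.00884 for Acer3. That of Naaa ranged from 0.0187, without replicate 2 of induced mice, to 0.0561. The slope of Asah1, transgene included, passed the threshold without replicate 4 of Dox controls (-0.0555), the cause of which was not tested. How many of all genes passed in that fit was not counted. Numbers of all genes called differed more. Between induced mice and Dox controls they were 2 by edgeR, 12 by DESeq2, 1 with the 2 groups alone or the block, where Sod1 was lost, and 1 to 2 leaving out 1 mouse. Between induced mice and uninduced carriers they were 2 by edgeR, 95 by DESeq2, 3 with the 2 groups alone, 4 without the filter, and up to 8 leaving out 1 mouse. There DESeq2's own filter on mean counts left 3198 genes with an adjusted p, Asah1 but not Asah2, Naaa, Acer2 or Acer3 among them, so DESeq2 made no call on these 4. Between the uninduced groups they were 2 by edgeR, 150 by DESeq2, 1 by limma-voom or with the ratio as a covariate, and 0 with the 2 groups alone, the block or an adjusted p under 0.05, where mt-Co2 and mt-Co3 were lost, and 0 to 2 leaving out 1 mouse. With all exons joined, the share of Asah1 in the family's level per kb was 68.6% in Dox controls and 67.2% in uninduced carriers, against 67.0% and 65.6%. Depth limits Acer1, which had 1 count in all, and Naaa, at 52 to 163 counts per mouse.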
